A study of Mus musculus with 2 samples.

Results

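Il17a/Cd163l1 T cells were defined here among single cells of mouse lung adenocarcinoma by the RNA of 2 genes, the cytokine gene Il17a and the scavenger receptor gene Cd163l1. A barcode (1 captured cell) belonged to them if the authors had annotated it Immune in the CD45-positive library and if it met 5 limits on its UMI, the unique molecular identifiers that each count 1 captured transcript. It had at least 1 UMI of Cd3d, Cd3e and Cd3g together, at least 2 UMI of Il17a and Cd163l1 together, at most 1 UMI of Cd8a and Cd8b1, 0 UMI of Foxp3, and at most 1 UMI of Cd79a and Cd79b. The gate took 264 of the 15389 barcodes in the series. They were 6.86% (95% Clopper-Pearson interval 6.08 to 7.70) of the 3849 T cell barcodes of that library, which were Immune barcodes with a CD3 UMI and at most 1 Cd79 UMI. They were 3.55% (3.14 to 4.0) of the 7438 Immune barcodes. The cells were chosen by their measured Il17a and Cd163l1 UMI, so the levels of these genes are a description.

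The series has 1 library of cells that carried CD45, the common antigen of white blood cells, and 1 of cells that did not, both from lung tumours of C57BL/6 mice. The deposited barcode names carry the tag LucOS in both libraries, which the labels do not explain. No treatment is named, and the number of mice, their age and how the tumours were induced are not stated. The CD45-positive library held 11432 barcodes and 47477407 UMI, and the CD45-negative library 3957 barcodes and 40873786 UMI. With 1 library per fraction there were no replicates, so no test between groups was made and every interval covers counting error only.

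IL-17A and IL-17F are secreted cytokines that act on epithelium and stroma through a receptor made of IL-17RA and IL-17RC, where they raise chemokines that draw neutrophils and antimicrobial proteins. In mouse lung, skin and gut lining they are made by gamma-delta T cells that take up this programme in the thymus, and by CD4 T helper cells of type 17. Cd163l1, also called Scart1, is known in mouse from IL-17-producing gamma-delta T cells.

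Of 16 genes of T cell receptor chains that were looked for, 0 were in the table analysed here. Whether a barcode used a gamma-delta or an alpha-beta receptor could therefore not be read, and the cells are called by the genes of their gate. Of the markers listed for gamma-delta-like type 17 cells, Il17f, 5830411N06Rik, Blk, Sox13, Il23r, Il1r1 and Ccr6 each had a higher level in them than in CD4 T cells of the same library. Those CD4 T cells were gated to have no Il17a or Cd163l1 UMI, which left out CD4 T cells with Il17a. The comparison therefore cannot tell gamma-delta T cells from CD4 T helper cells of type 17. For Il23r and 5830411N06Rik, at 9 UMI each, the interval of the ratio included 1.

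The pair of IL-17 genes lies side by side on mouse chromosome 1. In the GRCm38 annotation Il17a spans chr1:20730905-20734496 on the plus strand and Il17f spans chr1:20777146-20790617 on the minus strand, with 42649 bases between them. The 250 bases before each start site are shown because Il17f, which the gate did not use, neighbours the gate gene Il17a. The sequences are RefSeq's for GRCm38.p6, from chr1:20730655-20730904 (plus) and chr1:20784271-20784520 (minus), written 5′ to 3′ on the strand of the gene. RefSeq starts Il17a at the annotated gene start, but starts Il17f at base 20784270, which is 6347 bases inside the annotated span and the start of 1 of its 4 annotated transcripts. Capitals mark TATAAA, the letters of a TATA box, which were picked after the sequences were seen.
Il17a promoter: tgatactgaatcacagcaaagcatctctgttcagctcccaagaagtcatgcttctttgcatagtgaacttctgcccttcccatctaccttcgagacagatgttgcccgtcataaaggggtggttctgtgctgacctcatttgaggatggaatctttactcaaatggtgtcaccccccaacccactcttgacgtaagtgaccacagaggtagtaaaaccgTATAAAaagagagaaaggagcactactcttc
Il17f promoter: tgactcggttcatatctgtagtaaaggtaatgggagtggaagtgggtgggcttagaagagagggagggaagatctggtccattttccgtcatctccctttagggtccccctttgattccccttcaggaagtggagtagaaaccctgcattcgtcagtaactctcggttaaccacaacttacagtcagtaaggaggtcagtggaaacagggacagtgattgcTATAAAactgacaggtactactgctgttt
Each window held the motif 1 time, on the strand of the gene, at position -31 from the start site of Il17a and at position -29 from that of Il17f. The motif was searched on both strands, as TATAAA or TTTATA. Of 32851 RefSeq promoter windows of the same length 12.37% held it, and a match of these letters is a description, not a site.

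The 264 barcodes carried 858 Il17a UMI and 336 Cd163l1 UMI, or levels of 932 and 365 UMI per 1000000 summed UMI (CPM). A UMI of both genes was seen in 100 barcodes (37.9%), of Il17a alone in 104 (39.4%) and of Cd163l1 alone in 60 (22.7%). The single highest barcode held 34 Il17a UMI, and the 10 highest held 22% of all Il17a UMI of these cells. Membership rested on few molecules for many of them, since 97 barcodes (36.7%) had 2 UMI of the pair, 89 had 3 or 4 and 78 had 5 or more. The median barcode had 2945.5 UMI in all, with a range of 2207 to 12622.

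**Figure D1:**
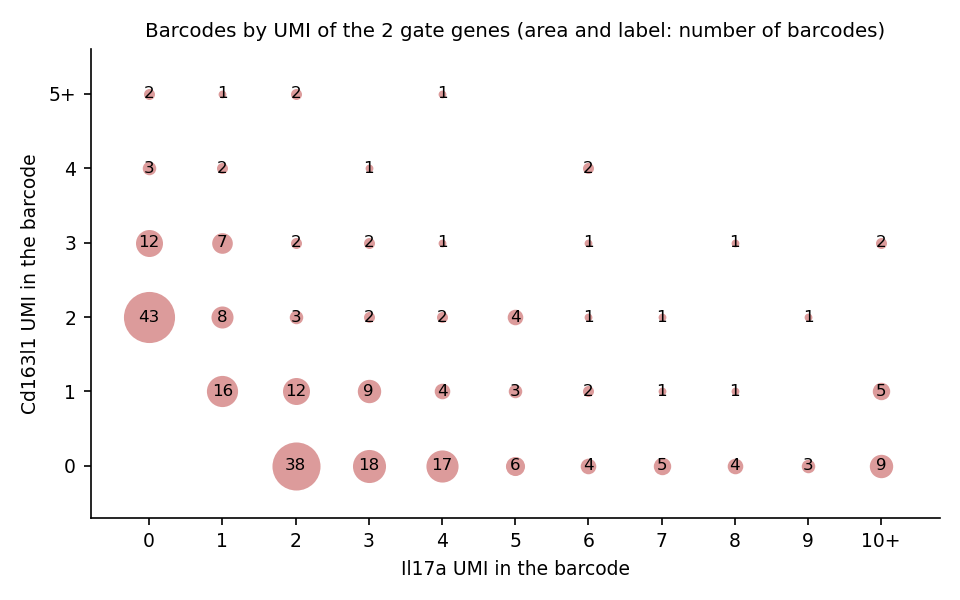
Number of Il17a/Cd163l1 T cell barcodes by their Il17a UMI (x axis) and Cd163l1 UMI (y axis), where circle area and the printed number give the barcodes. The 2 largest circles are the 43 barcodes with 2 Cd163l1 UMI and no Il17a UMI and the 38 with 2 Il17a UMI and no Cd163l1 UMI.

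Just outside the gate, 248 T cell barcodes had 1 UMI of the pair and met the other limits. Genes that the gate did not use had lower levels there than in the 97 barcodes just inside it with 2 UMI. Blk was at 54.5 CPM outside and 106 inside, Cryba4 at 26.6 and 65.9, and Ly6g5b at 27.9 and 80.3. In the 89 barcodes with 3 or 4 UMI these 3 genes were at 127, 90.1 and 83.9 CPM, and in the 78 with 5 or more at 212, 132 and 140 CPM. Not every gene followed the count. Il17re was at 42.4 CPM outside and at 83.2, 77.7 and 80.0 CPM in the 3 bins inside, and Sox13 at 17 CPM outside and at 40.1, 28.0 and 28.0 CPM. The genes shown were picked for their high ratios, so these levels are a description.

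The gate also left out cells with the same RNA. Of 469 Immune barcodes with at least 2 UMI of the pair, 205 were not members, most often for 2 or more Cd8 UMI (100 barcodes) or 2 or more Cd79 UMI (97 barcodes). Members held 48.3% of the Il17a UMI and 44.6% of the Cd163l1 UMI of all Immune barcodes.

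For comparison, 3 sets of T cells of the same library without an Il17a or Cd163l1 UMI were gated. CD4 T cells were 202 barcodes with a Cd4 UMI and no Foxp3 or Cd8 UMI (713463 UMI), CD8 T cells were 911 barcodes with at least 2 Cd8 UMI and no Cd4 or Foxp3 UMI (3216828 UMI), and Foxp3 T cells were 123 barcodes with a Foxp3 UMI and at most 1 Cd8 UMI (473321 UMI). Foxp3 marks regulatory T cells. Median depths of the 3 sets were 2961.5, 3082 and 3271 UMI, close to that of the Il17a/Cd163l1 T cells. The 3 comparisons share the Il17a/Cd163l1 T cells.

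Against CD4 T cells, 144 of 5087 genes with at least 30 UMI in both groups together had a level at least 2-fold higher in Il17a/Cd163l1 T cells (2.83%), and 71 had one at least 2-fold lower (1.4%). Against CD8 T cells 368 of 7793 genes were higher (4.72%) and 265 lower (3.4%), 8.12% either way, and against Foxp3 T cells 230 of 4627 were higher (4.97%) and 157 lower (3.39%), 8.36% either way. Scaling the CD8 comparison to a median ratio of 1 turned its split into 285 higher and 304 lower. The genes of all gates were left out of these counts. The median log2 ratio over all genes counted was 0.04, 0.10 and -0.01 in turn.

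**Figure D2:**
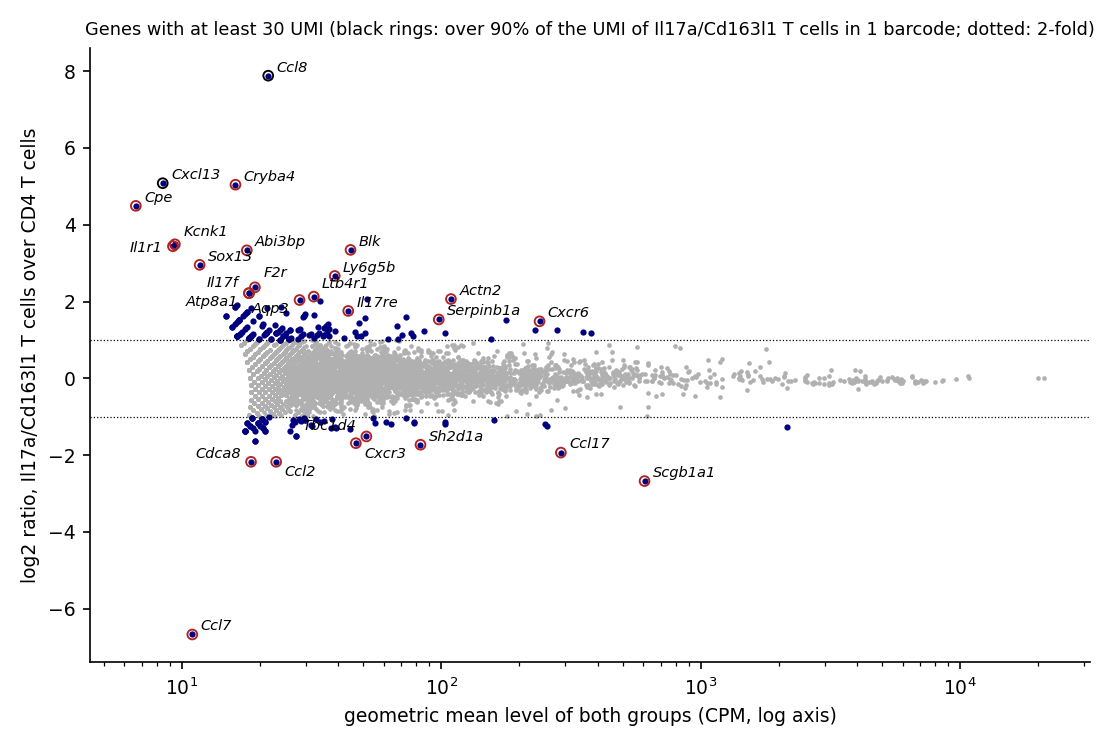
Log2 ratio of levels, Il17a/Cd163l1 T cells over CD4 T cells (y axis), against the geometric mean level of both groups in CPM (x axis, log scale), with 1 point per gene with at least 30 UMI. Blue points are at least 2-fold apart, and a count of 0 was set to 3 for the ratio. Most labelled genes above the upper dotted line, such as Cryba4 (85 UMI in 63 barcodes) and Blk (131 UMI in 86), were spread over many cells, while 304 of 304 UMI of Ccl8 and 130 of 131 of Cxcl13 came from 1 barcode.

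Among cytokine genes, Il17f stood out with Il17a, the gene it neighbours. It had 36 UMI (39.1 CPM) in Il17a/Cd163l1 T cells, against 6 UMI (8.41 CPM) in CD4, 4 UMI (1.24 CPM) in CD8 and 1 UMI (2.11 CPM) in Foxp3 T cells. Its level was 4.65 times that of CD4 T cells (95% conditional-binomial interval 1.94 to 13.5). Il17f UMI were seen in 20 of the 264 barcodes (7.58%), and in 0.300% of 667 B cell barcodes, a class not known to use it, with a median of 3326 UMI per barcode. The B cell barcodes were Immune barcodes of that library with at least 3 UMI of Cd79a and Cd79b together and no CD3 UMI. Plasma cells were not gated out of them, and plasma cell markers summed to 65998 CPM there against 9351 CPM for B cell markers. Il22, the cytokine that acts on epithelium and is often made with IL-17, had 3 UMI and Csf2, encoding the growth factor GM-CSF, had 5 UMI in 2 barcodes, too few for a level. Of 6 cytokine genes of the list with enough UMI against CD4 T cells, Il17f was the 1 at least 2-fold higher, and Tnf and Ifng were at least 2-fold lower.

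Several receptors that type 17 cells use to sense cytokines and to find tissue were at a higher level. Of 13 listed, 11 had enough UMI against CD4 T cells, and 6 of them were at least 2-fold higher and 0 lower, with a median log2 ratio of 1.25 (0.04 over all genes). Against CD8 T cells 5 of 12 were higher and 0 lower, and against Foxp3 T cells 4 of 10 were higher and 1 (Il2ra) lower. Il17re, a receptor subunit for IL-17C, had 74 UMI (80.4 CPM) against 23.8, 6.22 and 8.45 CPM in CD4, CD8 and Foxp3 T cells. Its ratio to CD4 T cells was 3.37 (1.97 to 6.10), and 23.5% of barcodes carried it against 0.900% of B cell barcodes. Il1r1, the receptor through which IL-1 drives IL-17 production, had 28 UMI in 25 barcodes (30.4 CPM) against 2.80 CPM in CD4 and 3.42 CPM in CD8 T cells. Foxp3 T cells had 0 Il1r1 UMI, so the level was at least 4.80-fold higher than there. Il23r, the receptor subunit for IL-23, was at 9.78 CPM on 9 UMI against 1, 3 and 2 UMI in the other sets.

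The homing receptor Cxcr6, which binds the ligand CXCL16, had 368 UMI in 61.7% of barcodes. Its level was 400 CPM against 143 in CD4, 205 in CD8 and 80.3 in Foxp3 T cells, or 2.80 (2.24 to 3.52), 1.95 (1.71 to 2.22) and 4.98 (3.56 to 7.15) times theirs. Its annotated span overlaps that of Fyco1 on the other strand, and the strand setting of the counting is not stated by the labels. Ltb4r1, the receptor for the lipid mediator leukotriene B4, was at 67.4 CPM against 15.4, 9.64 and 27.5. Ramp1, a co-receptor for the neuropeptide CGRP, was at 354 CPM against 149, 241 and 199. Ccr6, the receptor for CCL20, was at 36.9 CPM against 14 in CD4, 21.1 in CD8 and 14.8 in Foxp3 T cells, and B cell barcodes, whose cells use Ccr6 themselves, had 24.5. Every one of the 4 genes had its highest level in the Il17a/Cd163l1 T cells, by factors that ran from 1.47 for Ramp1 over CD8 T cells to 6.99 for Ltb4r1 over CD8 T cells.

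Among transcription factors, Sox13, a factor of mouse gamma-delta T cell development, was at 32.6 CPM against 4.21, 2.80 and 4.23, a ratio to CD4 T cells of 7.75 (2.41 to 39.7). With 1000 UMI drawn per barcode its ratio to Foxp3 T cells was at least 1.86, short of 2-fold, since they then had 0 UMI. Maf and Rora, factors of type 17 cells, were at 251 and 174 CPM, with ratios of 3.96 and 2.55 over CD8 T cells but of 0.880 and 0.979 over Foxp3 T cells. Both genes were thus higher than in CD8 T cells, and against Foxp3 T cells both intervals included 1. Zbtb16, a factor of innate-like T cells, was at 18.5 CPM on 17 UMI against 5.61 in CD4 and 3.73 in CD8 T cells, and Foxp3 T cells had 0 UMI.

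Genes known from gamma-delta lineage cells were next. Of 27 listed, 20 had enough UMI against CD4 T cells, and 9 were at least 2-fold higher and 1 (Cd27) lower. Over all genes 2.83% were higher and 1.4% lower. The median log2 ratio of the list was 0.80 (0.04 over all genes). Against CD8 T cells 9 of 21 were higher and 1 lower, and against Foxp3 T cells 12 of 20 were higher and 1 lower, with Cd27 the lower gene each time. Blk (chr14:63372836-63417037, minus strand) encodes a SRC-family kinase of B cells that mouse IL-17-producing gamma-delta T cells also use. It had 131 UMI in 86 barcodes (142 CPM), against 14 CPM in CD4, 7.15 in CD8 and 10.6 in Foxp3 T cells, and 39.8 CPM in B cell barcodes. Its level was 10.2 times that of CD4 T cells (5.35 to 21.7), and higher than in the B cell barcodes, a set that also held plasma cell RNA. Genes listed for alpha-beta CD4 T cells were also counted. Against CD4 T cells 0 of 6 were at least 2-fold higher and 2 lower (Cd6 and Izumo1r). Against CD8 T cells 2 of 6 were higher (Cd40lg and Zbtb7b) and 0 lower. Against Foxp3 T cells 0 of 5 were higher and 2 lower (Cd6 and Izumo1r).

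Actn2 (chr13:12269426-12340760, minus strand), which encodes an alpha-actinin of the muscle sarcomere, had 205 UMI in 127 of the 264 barcodes (48.1%). Its level was 223 CPM against 53.3, 27.4 and 14.8 in CD4, CD8 and Foxp3 T cells and 7.24 in B cell barcodes. The ratios were 4.18 (2.95 to 6.08), 8.14 (6.31 to 10.6) and 15.1 (7.18 to 37.9). Serpinb1a, an inhibitor of neutrophil proteases, was at 166 CPM against 57.5, 25.2 and 35.9. Tmem176a and Tmem176b, neighbouring genes of membrane proteins, were at 432 and 535 CPM against 179 and 230 in CD4 T cells. Kcnk1, a potassium channel gene, had 29 UMI in 29 barcodes (31.5 CPM) against 2.80 CPM in CD4 T cells. Cd27, a co-stimulatory receptor that is low on IL-17-producing and high on interferon-producing gamma-delta T cells in mouse, was at 51.1 CPM against 105, 143 and 129 in the 3 sets.

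Genes outside the lists were among the most different. Cryba4 (chr5:112246493-112252518, minus strand), a crystallin gene of the eye lens, had 85 UMI in 63 barcodes (92.3 CPM) against 2, 5 and 2 UMI in CD4, CD8 and Foxp3 T cells. The ratio to CD4 T cells was 32.9 (8.84 to 276), and at least 6.63 with 1000 UMI drawn per barcode, where CD4 T cells had 0 UMI. Ly6g5b (chr17:35113948-35115428, minus strand), a member of the Ly6 family, had 90 UMI in 69 barcodes (97.8 CPM) against 11, 14 and 1 UMI. Abi3bp, encoding a protein of the extracellular matrix, was at 56.5 CPM against 5.61, 3.11 and 8.45, and Cpe, encoding carboxypeptidase E, was at 31.5 CPM against 1.40, 2.18 and 6.34. F2r, the thrombin receptor, was at 43.5 CPM against 8.41 in CD4, 23.6 in CD8 and 10.6 in Foxp3 T cells. Cryba4 and Ly6g5b had UMI in 1.35% and 0.450% of B cell barcodes against 23.9% and 26.1% of Il17a/Cd163l1 T cells. With every barcode thinned to 2000 UMI, which left out 0 barcodes, Cryba4 was seen in 17.05% and 0.600%, Ly6g5b in 17.4% and 0.300%, Il17re in 15.5% and 0.450% and Il17f in 6.06% and 0.300% of Il17a/Cd163l1 T cells and B cells.

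By ratio of Il17a/Cd163l1 T cells over the other 3585 T cell barcodes, the 10 highest genes were Cxcl13, Ccl8, Cryba4, Il17f, Ly6g5b, Auts2, Blk, Ccl21a, Cpe and Nxnl2. The chemokine genes among them did not describe the population. A single barcode held 304 of 304 Ccl8 UMI and 130 of 131 Cxcl13 UMI, and another held 15 of 17 Ccl21a UMI. The first of these had 7390 UMI in all, with 416 of Apoe, 128 of Lyz2 and 73 of C1qa, genes that macrophages express, beside 1 UMI each of Il17a and Cd163l1. No other Il17a/Cd163l1 T cell had a Ccl8 UMI.

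**Figure D3:**
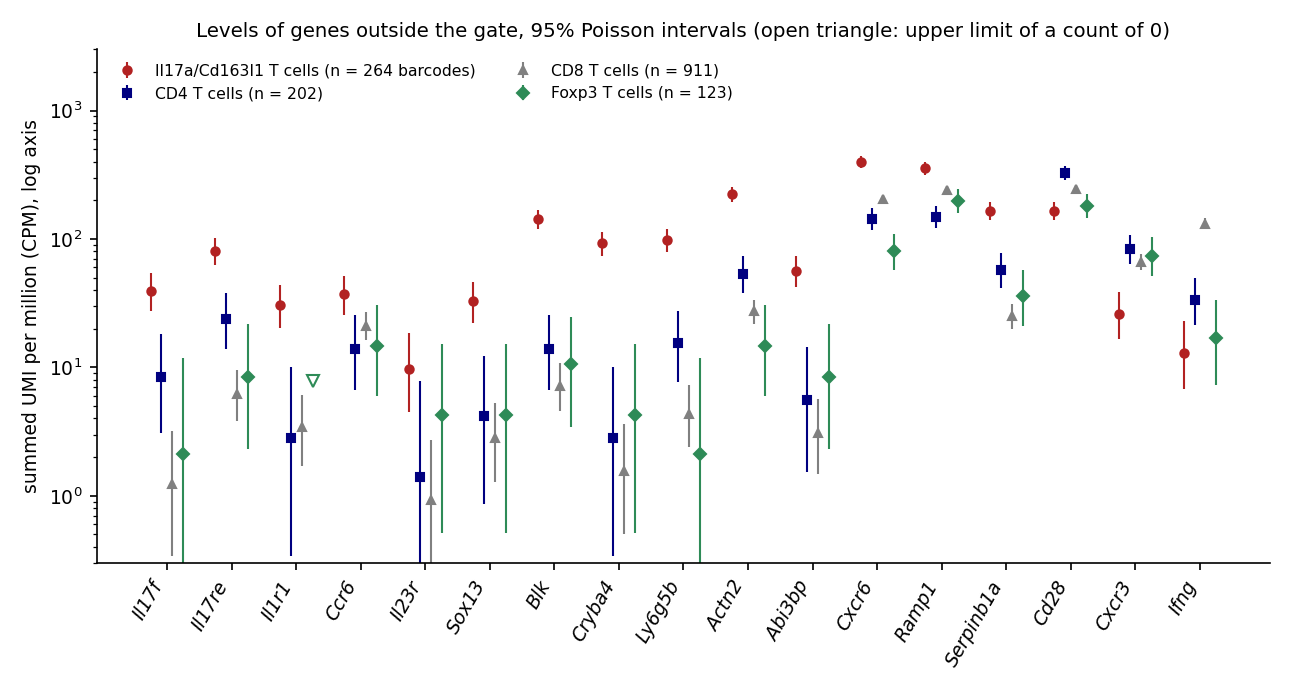
Level of 17 genes in CPM (y axis, log scale) with 95% Poisson intervals in Il17a/Cd163l1 T cells (circles), CD4 (squares), CD8 (triangles) and Foxp3 T cells (diamonds). From Il17f to Serpinb1a the circles are highest, for example 142 CPM for Blk against 14, 7.15 and 10.6, and for Cd28, Cxcr3 and Ifng at least 1 other set is higher.

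Genes of interferon-making and cytotoxic T cells had lower levels than in CD8 T cells. Of 8 interferon-type genes with enough UMI against CD8 T cells, 7 were at least 2-fold lower and 0 higher, with a median log2 ratio of -1.42 (0.10 over all genes). Against CD4 T cells 3 of 6 were lower (Ifng, Cxcr3 and Cd27) and 0 higher, and against Foxp3 T cells 2 of 5 were lower (Cxcr3 and Cd27) and 1 higher (Ly6c2). Ifng, the gene of interferon gamma, had 12 UMI (13.0 CPM) against 33.6, 132 and 16.9 CPM in CD4, CD8 and Foxp3 T cells, or 10.1-fold lower than in CD8 T cells (5.73 to 19.7). Cxcr3, the receptor for interferon-induced chemokines, was at 26.1 CPM against 84.1, 66.2 and 74.0. Sh2d1a, the adaptor SAP of T cell help and cytotoxicity, was at 45.6 CPM against 151, 97.0 and 88.7.

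Of 11 cytotoxic genes, 6 were at least 2-fold lower than in CD8 T cells and 0 higher. Against CD4 T cells 0 of 9 were lower and 2 higher (Gzma and Klrk1, median log2 ratio -0.07), and against Foxp3 T cells 1 of 9 was lower (Gzmb) and 2 higher (Ccl3 and Klrk1). Nkg7, a granule protein gene, was at 230 CPM against 1689 (7.33-fold lower, 6.39 to 8.45), and Gzmk, a granzyme gene, had 2 UMI against 120. The chemokine genes Ccl1 and Xcl1 were at 30.4 and 46.7 CPM against 769 and 639. Gzma was at 55.4 CPM against 114, but 44 of its 51 UMI came from 1 barcode. Klrk1, the activating receptor NKG2D, was higher than in all 3 sets, at 154 CPM in 91 barcodes against 68.7 in CD4, 123 in CD8 and 44.4 in Foxp3 T cells. Of 9 inhibitory receptor genes 4 were at least 2-fold lower than in CD8 T cells. Lag3 was at 26.1 CPM against 205, while Pdcd1, which encodes PD-1, was at 64.1 CPM against 107 in CD8 and 37.8 in CD4 T cells.

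Against Foxp3 T cells, some genes that regulatory T cells use had low levels and others did not; no list of them was counted. Il1rl1, which encodes the IL-33 receptor ST2 named in the study's question, had 4 UMI (4.35 CPM) in Il17a/Cd163l1 T cells against 74.0 CPM in Foxp3 T cells, 17-fold lower (6.09 to 65.9). It was at 14 CPM in CD4 and 8.08 in CD8 T cells, and the intervals of both ratios included 1. Tnfrsf9 and Tnfrsf4, the co-stimulatory receptors 4-1BB and OX40, were at 16.3 and 69.5 CPM against 203 and 613 in Foxp3 T cells. Ctla4 and Il2ra, an inhibitory receptor and the IL-2 receptor alpha chain, were at 86.9 and 43.5 CPM against 298 and 171. Icos and Nrp1, a co-stimulatory and a semaphorin receptor, were at 418 and 116 CPM against 437 and 146, and both intervals of the ratio included 1. Of 10 cell cycle genes, 8 were at least 2-fold lower than in Foxp3 T cells. Against CD4 T cells 3 of 10 were lower (Top2a, Stmn1 and Rrm2), and against CD8 T cells 0 of 12 were, with 0 higher in each comparison.

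Of 10 tissue residency genes, 2 were at least 2-fold higher than in CD4 T cells (Itgae and Cxcr6), 2 than in CD8 T cells (Itgae and Rgs1) and 1 than in Foxp3 T cells (Cxcr6), with 0 lower in each. Itgae, the integrin CD103, was at 59.7 CPM against 25.2 in CD4 and 29.8 in CD8 T cells, and 65.5 in Foxp3 T cells. Cd69, an early activation and residency marker, was at 137 CPM against 144, 119 and 114, within counting error of each. Of tissue repair genes, 3 of 7 were higher than in CD8 T cells (Areg, Hbegf and Furin) and 1 lower (Penk), 0 of 4 differed 2-fold from CD4 T cells, and 1 of 5 was lower than in Foxp3 T cells (Penk). Areg, the growth factor amphiregulin, was at 69.5 CPM against 46.3, 23.0 and 106, with 12 of its 64 UMI in 1 barcode. Of 9 glycolysis genes, 0 differed 2-fold from CD4 T cells in either direction.

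The 264 barcodes were not uniform. The 160 with a Cd163l1 UMI and the 104 without, which by the gate all had at least 2 Il17a UMI, differed at least 2-fold in 147 of 3405 genes (4.32%), 85 higher (2.5%) and 62 lower (1.82%) with Cd163l1. Cd163l1 (chr7:140218267-140231145, plus strand) lies beside its relative 5830411N06Rik (chr7:140247284-140300736), and reads of the pair may be split uncertainly. Abi3bp was at 83.8 CPM with Cd163l1 and 16.2 without, a ratio of 5.19 (2.21 to 14.9). Cryba4 was at 129 and 37.7 CPM, Kcnk1 at 45.5 and 10.8, Sox13 at 45.5 and 13.5, and F2r at 63.7 and 13.5. Cxcr6 was at 521 and 221 CPM, a ratio of 2.36 (1.84 to 3.05). Of 19 lineage genes with enough UMI, though, 2 were at least 2-fold higher (Sox13 and Pxdc1) and 1 lower (Cd5), and of 9 receptors 2 were higher (Cxcr6 and Ltb4r1) and 0 lower. Blk (173 and 96.9 CPM) and Actn2 (259 and 170) differed by less than 2-fold, and Il1r1 (31.0 and 29.6) and Ccr6 (32.8 and 43.1) had overlapping intervals.

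The other direction held genes listed for alpha-beta CD4 T cells. Cd5 was on this list and on the lineage list above, so it is counted in both. Of 5 alpha-beta CD4 genes with enough UMI, 3 (Cd5, Cd6 and Cd28) were at least 2-fold lower with Cd163l1 and 0 higher, with a median log2 ratio of -1.38 (0.01 over all genes). Cd28, the main co-stimulatory receptor, was at 100 CPM with Cd163l1 and 261 without, 2.61-fold lower (1.85 to 3.70). Cd5, which tunes receptor signalling, was at 27.3 and 75.4 CPM, Ctla4 at 41.9 and 153, and Tnfsf8, the ligand CD30L, at 49.2 and 199. Cd4 itself was at 32.8 and 67.3 CPM. Stmn1, a gene of dividing cells, was at 58.3 and 186 CPM. Il17f was at 29.1 and 53.8 CPM with overlapping intervals. Summed markers of other cells also moved with the split. Neutrophil markers were at 2448 CPM with and 1228 without Cd163l1, erythroid markers at 291 and 945, and macrophage markers at 5345 and 6073, and their part in the result was not tested. The median barcode differed little. Its share of neutrophil UMI was 0.0363% with and 0.0347% without Cd163l1, of erythroid UMI 0.017% and 0.0201%, and of macrophage UMI 0.0689% and 0.0698%. The highest barcode had 10.64% neutrophil UMI with Cd163l1 and 3.729% without. For erythroid UMI the highest had 0.5962% with and 9.617% without.

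**Figure D4:**
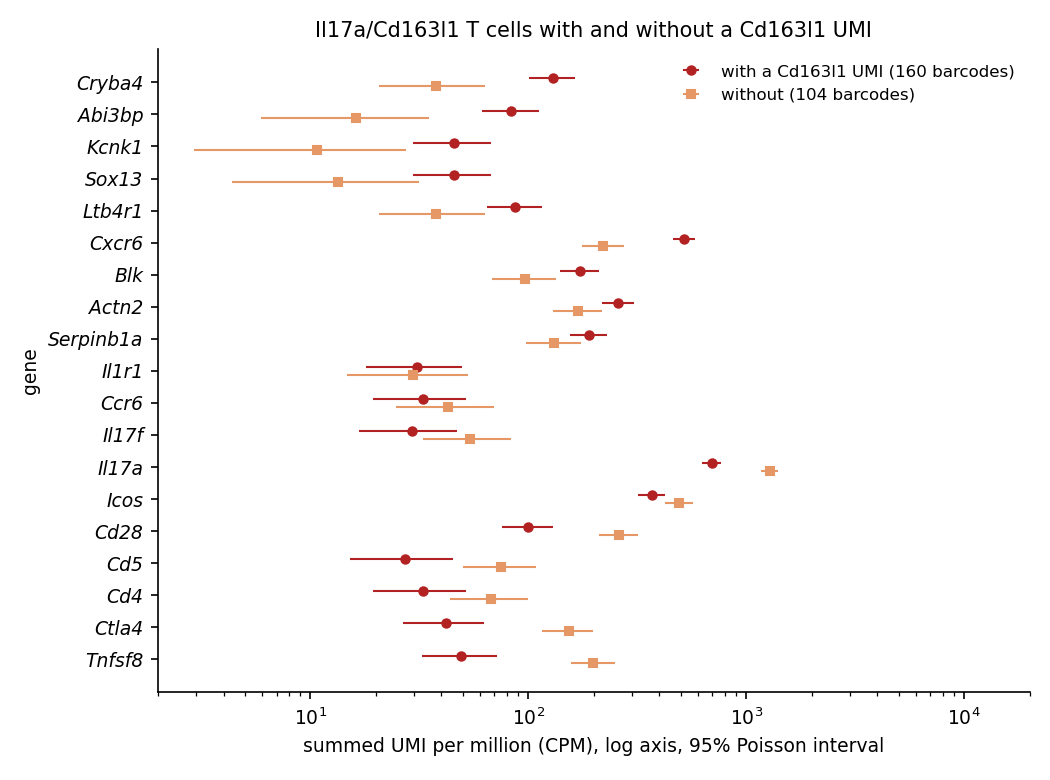
Level in CPM (x axis, log scale) of 19 genes in Il17a/Cd163l1 T cells with (circles) and without (squares) a Cd163l1 UMI, with 95% Poisson intervals. The circles lie to the right for genes from Cryba4 (129 against 37.7 CPM) to Serpinb1a (189 against 132), and to the left for genes such as Cd28 (100 against 261) and Tnfsf8 (49.2 against 199).

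A Cd4 UMI was present in 37 of the 264 barcodes (14%, 10.1 to 18.8), against 4.05% of B cell barcodes (7.95% and 1.65% when thinned to 2000 UMI). Between barcodes with and without a Cd4 UMI, 85 of 3405 genes were at least 2-fold higher (2.5%) and 315 lower (9.25%). The barcodes with a Cd4 UMI held 128824 UMI in all and those without held 791703 UMI. How far counting error in the smaller of these sets of barcodes shaped the numbers of higher and lower genes was not tested. In those with a Cd4 UMI, Il17f was at 124 CPM (71.0 to 202) against 25.3 (15.4 to 39.0), Cd28 at 272 against 148, and Il17a at 1063 against 911 with overlapping intervals. Cd163l1 was at 186 CPM (119 to 277) against 394 (352 to 440). Cryba4 (69.9 and 96.0), Actn2 (202 and 226) and Blk (93.1 and 150) had overlapping intervals. In 10 barcodes with at least 3 UMI of the complement genes C1qa, C1qb and C1qc lay 353 of the 376 C1q UMI of these cells, and all 9 macrophage markers with enough UMI were at least 2-fold lower with a Cd4 UMI. Their part in the difference was not tested.

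Clustering the 3849 T cell barcodes without the 11 gate genes gave 19 clusters, with Il17a/Cd163l1 T cells in each of them. A cluster of 119 barcodes led by Ly6g5b, Cryba4, Blk, Ltb4r1, Actn2 and Il17re held 68 of the 264 (25.8%, 20.6 to 31.5), and they made up 57.1% of it. It held 1.42% of the other T cells, with 0.990% of CD4, 0.110% of CD8 and 0.813% of Foxp3 T cells. Of barcodes with a Cd163l1 UMI 51 of 160 (31.9%) fell in it, and of those without 17 of 104 (16.3%). A second group of 59 (22.3%) lay in a cluster of 530 barcodes led by Cd40lg, Ccr4 and Il17re, which also held 33.2% of CD4 T cells. The share of 25.8% became 49.6% at a resolution of 0.5, in a cluster of 807 barcodes, of which Il17a/Cd163l1 T cells made up 16.2%. Genes that vary with the gate genes stayed in the clustering, so it is no independent test.

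**Figure D5:**
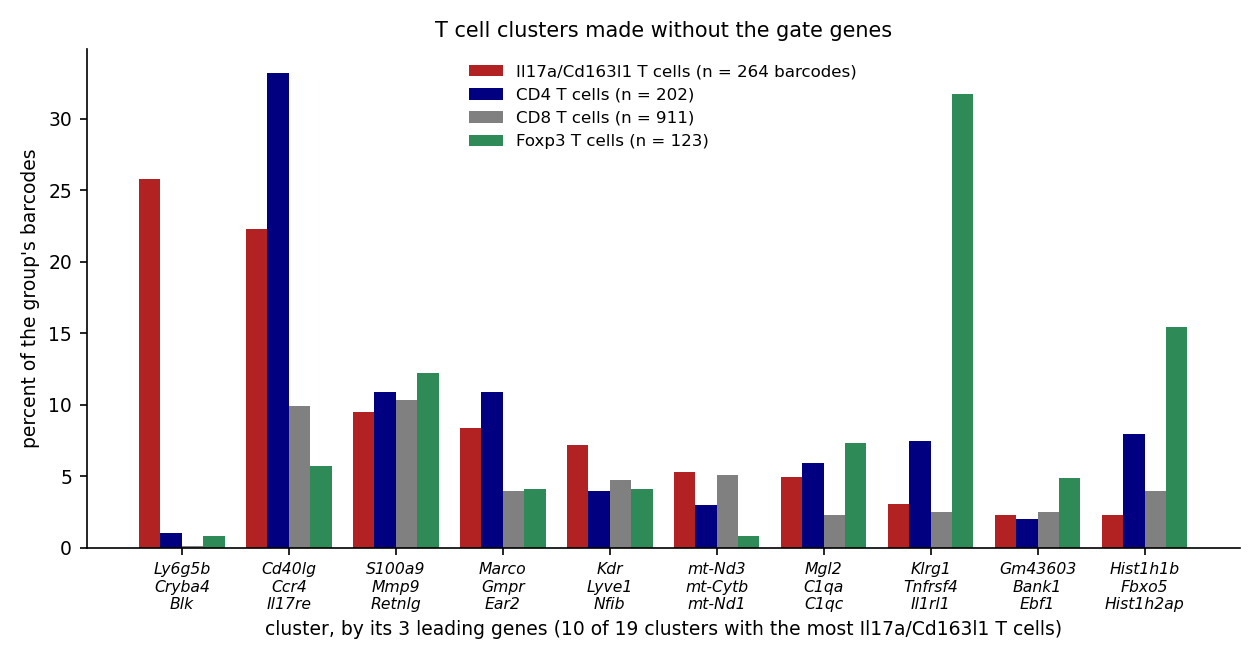
Percent of the barcodes of each T cell set (y axis) in the 10 clusters with the most Il17a/Cd163l1 T cells, each named by its 3 leading genes (x axis). The cluster of Ly6g5b, Cryba4 and Blk holds 25.8% of Il17a/Cd163l1 T cells and 0.990%, 0.110% and 0.813% of the other sets, and several further clusters are led by genes of neutrophils, macrophages or endothelium.

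The other Il17a/Cd163l1 T cells were spread over clusters led by genes of other cell types, of other T cell states or of mitochondria. There were 25 in a cluster led by the neutrophil genes S100a9, Mmp9 and Retnlg, 22 in 1 led by the macrophage genes Marco and Ear2, 19 in 1 led by the endothelial genes Kdr and Lyve1, and 14 in 1 led by mitochondrial genes. There were 8 in a cluster led by Klrg1, Tnfrsf4 and Il1rl1, and 6 and 5 in clusters led by cell cycle genes. Among the 15 nearest neighbours of an Il17a/Cd163l1 T cell, 27.9% were of the same kind on average, against 5.13% among the neighbours of other T cells and 6.86% of all barcodes. RNA of other cells was present in every set. Sftpc, the surfactant gene of AT2 cells, had a UMI in 99.2% of Il17a/Cd163l1 T cells and in 96.6% of B cell barcodes. All 10 macrophage markers had UMI, and summed to 5639 CPM in Il17a/Cd163l1 T cells, 5021 in CD4, 2963 in CD8 and 2643 in Foxp3 T cells. All 6 neutrophil markers had UMI, at 1955, 1125, 1169 and 1785 CPM (Mmp8 at 0 in Foxp3 T cells), and their part in the ratios above was not tested. Leaving out barcodes with at least 3 C1q UMI, chosen after seeing the data, gave 143 genes higher and 74 lower than in CD4 T cells.

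The partners of the IL-17 pathway lay in the deposited classes of other cells. In the CD45-negative library Ccl20, the ligand of Ccr6, was at 117 CPM in AT2 cells and 42.4 CPM in Ciliated cells, and at most 3.79 CPM in the other 5 classes. A minority of barcodes carried it, 7.1% of AT2 and 9.26% of Ciliated cells. Cxcl16, the ligand of Cxcr6, was at 392 CPM in AT1 cells, in 94.7% of whose barcodes it had a UMI, and at 129 CPM in AT2 cells. Il23a, a subunit of IL-23, was at 11.6 CPM in AT1 and 2.42 CPM in AT2 cells. Il12b, the other subunit of IL-23, had 0 UMI in every class of that library, so a source of IL-23 could not be read. In the CD45-positive library Il12b had 50 UMI in Immune cells (1.82 CPM). In the CD45-negative library Il1b, the ligand of Il1r1, was at 159 CPM in Immune cells and at most 17.9 CPM in other classes. In the CD45-positive library it was at 503 CPM in Immune cells, but also at 256 CPM in AT2 and 298 CPM in Endothelial cells, and the share of RNA from outside the cell in these levels was not tested. Within the CD45-negative library, the ligands of both homing receptors were therefore highest in epithelial classes, and Cxcl16 was also at 114 CPM in Fibroblast cells.

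The IL-17 receptor subunits were split between classes. Il17rc was at 53.9 CPM in Ciliated, 47.0 in Fibroblast, 27.2 in Endothelial, 24.1 in AT1 and 23.5 in AT2 cells of the CD45-negative library, and Immune cells there had 0 UMI over 108 barcodes. Il17ra was at 64.2 CPM in those Immune cells, 19.0 in Fibroblast, 8.21 in AT1 and 6.41 in AT2 cells. Some genes that IL-17 is known to raise were highest in epithelium of that library. They were Cxcl5, a neutrophil chemokine, at 98.1 CPM in AT1 cells, Cxcl1 at 80.6 CPM in AT1 cells, and Lcn2, which binds bacterial iron carriers, at 2956 CPM in AT2 cells. Other such genes were highest elsewhere, Steap4, Zc3h12a and S100a9 in Fibroblast cells (74.1, 33.6 and 16.6 CPM) and Cxcl2 and S100a8 in Immune cells (235 and 53.5 CPM). Few Fibroblast barcodes carried S100a9, with a UMI in 3.09% of them against 39.3% for Steap4 and 25.8% for Zc3h12a. Csf3 had 4 UMI in AT1 and 0 in AT2 cells. Il17a and Cd163l1 themselves were nearly absent from the CD45-negative library, with 5 and 0 UMI in 3957 barcodes. There 0 barcodes met the UMI limits of the gate, which allows a share of up to 0.0758%. In the CD45-positive library, barcodes of non-immune classes held 484 Il17a and 284 Cd163l1 UMI, and Immune barcodes 1776 and 753.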

How the data were processed

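Droplet 3′ single-cell libraries of the CD45-positive and CD45-negative fractions were analysed. The files hold raw UMI counts of 17790 genes per barcode and a cell class, both as deposited by the authors. Channels were loaded with 6000 cells and read at 98 base pairs, and Cell Ranger 1.1.0 aligned to mm10 and counted UMI, per the series design text. It does not say how the classes were made. The CD45-positive library held 11432 barcodes, more than the 6000 cells loaded per channel, and the labels do not give the number of channels. All deposited barcodes were kept and no doublet caller was used. Of 57 cell barcodes shared by both libraries, 0 belonged to Il17a/Cd163l1 T cells.

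UMI were summed per set and divided by the set's total (CPM). Levels have exact Poisson intervals, shares Clopper-Pearson intervals and ratios intervals from an exact conditional binomial, each of 95% and covering counting error alone, since PCR copies and free RNA are not modelled. A ratio of 2 or 0.5 among genes with at least 30 UMI in both sets together counted as higher or lower, and a set at 0 was given 3 counts over the set for a bound. Shares given as thinned used 2000 UMI drawn per barcode. The computation was tested on simulated data. Leiden clustering of the T cells (scanpy 1.11.5, igraph 0.11.9) used 2000 variable genes, 30 principal components, 15 neighbours and a resolution of 1. Other tools were Python 3.11.15, numpy 2.4.6, pandas 2.3.3, scipy 1.17.1, scikit-learn 1.9.0 and matplotlib 3.10.9. Positions came from GENCODE's GRCm38 annotation, promoter windows from RefSeq.

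The members, their gate and 32 gene lists were chosen with earlier results of these data known. Named genes were the 12 highest and 8 lowest ratios per comparison, the 10 highest over other T cells, from each list the 5 or fewer highest in UMI among those reaching 10, and a few named always; others were singled out after their values were seen, among them Ltb4r1, Serpinb1a, Zbtb16, Il2ra, Itgae, Cd69, Csf2, Atf3, Tnfsf14 and the partner genes. Alternatives were other UMI limits, cells left out, thinning, scaling and clustering settings. A transcription factor gene among the named genes, and its list's counts, are not reported here.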

Additional observations from a re-analysis of the deposited data

Results flagged for a closer look

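In the CD45-positive library, 102 of 3994 barcodes that the authors placed in non-immune classes met the UMI limits of the gate for Il17a/Cd163l1 T cells (2.55%, 2.09 to 3.09). They were outside the comparisons of the report. In the CD45-negative library 0 of 3957 barcodes met the limits, and of the Immune barcodes of the CD45-positive library 3.55% did (3.14 to 4). An Il17a UMI was seen in 6.27% of AT2, 7.09% of Endothelial and 9.6% of Immune barcodes of the CD45-positive library. The share of RNA from outside the cell in these UMI was not tested. Of the 102 barcodes, 67 were annotated Endothelial, 26 AT2, 3 Fibroblast, 3 Ciliated, 2 AT1 and 1 Erythrocyte. AT2 markers summed to 43519 CPM in them against 2300 CPM in the Il17a/Cd163l1 T cells, and endothelial markers to 2878 against 194 CPM. The AT2 sum did not describe the median barcode, which had 0.18% AT2 UMI against 0.1725% in the Il17a/Cd163l1 T cells. The highest of the 102 had 30.24%. For endothelial markers the median was 0.2118% against 0%. Actn2 was at 138 CPM, Cryba4 at 33.1 CPM and Cxcr6 at 192 CPM, with 223, 92.3 and 400 CPM in the Il17a/Cd163l1 T cells.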

How the results depend on the processing

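No paired analysis was possible because each fraction had 1 library and the labels give no replicate numbers. Over the 14 alternatives that can change a ratio, 5806 of 6603 ratios of 175 followed genes stayed within their intervals, 765 moved and 32 changed direction. Over CD4 T cells the ratio ran from 7.19 to 13.4 for Blk, 3.20 to 4.86 for Actn2, 2.62 to 4.4 for Il17re, 2.23 to 3.64 for Cxcr6, 5.99 to 11 for Sox13 and 4.20 to 13.4 for Ly6g5b. Cryba4 ran to 60.5 and Il17f to 8.56, and thinned to 1000 UMI per cell, where CD4 T cells had 0 UMI of each, they were at least 6.63 and at least 2.81. Over Foxp3 T cells, at 0 UMI when thinned, Sox13 was at least 1.86 (up to 10.8 otherwise) and Ly6g5b at least 5.44 (up to 99.8). Cxcr6 over CD8 T cells ran from 1.56 to 2.54, on both sides of 2-fold. Where a value below moved, the cause was not tested, except that fewer molecules, other UMI minimums and added barcodes change how many genes are counted.

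The gate took 512 barcodes at a minimum of 1 UMI of the pair and 167 at 3 UMI, and genes higher than in Foxp3 T cells then numbered 422 and 137. With only Cd163l1-positive members, 124 genes were lower than in CD4 T cells. Thinning each cell to 1000 UMI left 59 genes higher and 32 lower than in CD4, 185 and 165 than in CD8, and 69 and 61 than in Foxp3 T cells. With a minimum of 10 UMI per gene these were 585 and 378, 758 and 624, and 852 and 469. With a minimum of 100 UMI they were 24 and 14, 106 and 63, and 43 and 40. Adding the non-immune barcodes, an alternative chosen after seeing the data, gave 666 higher and 124 lower than CD4, 973 higher than CD8 and 788 higher than Foxp3 T cells. The largest share of members in a cluster was 49.6% at resolution 0.5 and 38.3% without the genes of the first 4 lists. These clusters were larger and less pure, at 807 and 489 barcodes, of which members made up 16.2% and 20.7%. In the main clustering members made up 57.1% of their top cluster, and at resolution 2 they made up 54.6%.

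Ratios that changed direction belonged to genes held by few barcodes or known from other cells. At a minimum of 3 UMI, Apoe was at 0.356 (CD4), 0.632 (CD8) and 0.918 (Foxp3), Ccl12 at 0.804 (CD8) and Ccl8 at most at 0.621 (Foxp3). With at least 2 CD3 UMI, Hbb-bt was at 1.12 (CD8). Without cells above 2 times the median UMI, Apoe was at 0.447 and Scgb1a1 at 1.10 (CD4), Ccl17 at 8.22 and Ccl8 at most at 0.365 (Foxp3). Without cells over 10% mitochondrial UMI, Gzma was at 0.353 (CD4). Thinned, Cdh5 was at 0.306 (CD4), Gldc at most at 1.15 (CD8), which leaves its direction unread, and Ccl17 at 1.17 (Foxp3). The rest came from alternatives chosen after seeing the data. Without barcodes of at least 3 C1q UMI, Apoe was at 0.773 (CD4) and 0.984 (CD8), C1qa at 0.633 (CD8) and Ccl8 at most at 0.400 (Foxp3). Without barcodes over 2% macrophage, neutrophil and endothelial UMI, Apoe was at 0.624 (CD4) and 0.964 (CD8) and Ccl12 at 0.735 (CD8). With non-immune barcodes added, Scgb1a1 was at 5.56 (CD4), Hba-a1 at 1.27, Hba-a2 at 1.18, Hbb-bs at 1.27 and Hbb-bt at 1.51 (CD8). Without the single barcode richest in the gene, Apoe was at 0.471 and Gzma at 0.320 (CD4), Apoe at 0.838 and Ccl12 at 0.503 (CD8), and Ccl8 at most at 0.389 and Hba-a2 at 0.974 (Foxp3). Values given as at most or at least rest on 0 UMI in 1 set, counted as 3.

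Depth limits the rarest genes, since a count of 0 in these cells, given 3 counts for a bound, stands for a level of up to 3.26 CPM.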

Other observations

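A further set of listed genes covered the early response to stress and tissue handling. Of 12 immediate early genes, 1 (Atf3) was at least 2-fold higher than in CD4 T cells and 0 were lower, with a median log2 ratio of 0.39 against 0.04 over all genes. Atf3, a stress-induced transcription factor, was at 88.0 CPM against 29.4 in CD4, 38.6 in CD8 and 29.6 in Foxp3 T cells. Hbegf, a growth factor of the EGF family, was at 26.1 CPM on 24 UMI against 5.61, 8.70 and 8.45 CPM. Ccl20, which draws cells that carry Ccr6, had 24 UMI in 10 of the Il17a/Cd163l1 T cells, 12 of them in 1 barcode, and 0 UMI in CD4 T cells. Tnfsf14, the ligand LIGHT, was at 25.0 CPM against 8.41, 11.8 and 2.11 CPM.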
